A study of Drosophila melanogaster with 9 samples.

Results

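The nuclear genes of the mitochondrial respiratory chain and of the citrate cycle were followed in Drosophila brain tumours carried from the larval brain into adult flies. The set held 31 genes, taken by name from a list that was chosen with earlier results of these data known: 4 of complex I, 4 of complex II, 4 of complex III, 6 of complex IV, 5 of complex V, 5 enzymes of the citrate cycle, and cytochrome c with an ATP carrier and a channel of the mitochondrial membranes. All 31 were found among the 16727 gene symbols of the count tables, 13 under the name used here and 18 under an older FlyBase name. The 13 mitochondrially encoded subunits were not analysed here, so every statement below is about transcripts made in the nucleus.

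The respiratory chain sits in the inner mitochondrial membrane. Complex I takes electrons from NADH and complex II takes them from succinate, complex III passes them to cytochrome c, and complex IV hands them to oxygen. The proton gradient that this builds drives complex V, the ATP synthase. The citrate cycle supplies the NADH and the succinate, and complex II is itself an enzyme of the cycle. In the fly brain, neural stem cells and their neuronal progeny both depend on these enzymes, and glycolysis and oxidative phosphorylation are used to different degrees across cell types and stages. Subunit roles are given below by homology with the mammalian complexes.

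The tumours were induced with an actin flip-out driver that switched on GFP and HA-tagged forms of dpn and E(spl)mγ, a pair of Hes-family repressors that keep neural stem cells undifferentiated. This combination, called DM, was carried by the donor tissue of all 3 groups, so no group of untransformed tissue serves as a control. T0 libraries were made from tumour masses of the first transplantation and T3 libraries from masses of the fourth, both collected whole from the bodies of 25 adult w1118 hosts per library after 8 to 10 days of growth. Primary libraries were made from GFP-positive cells that were freed with collagenase and sorted by FACS from 150 third-instar larval brains per library, 4 days after clone induction. Each group held 3 libraries: replicates 2, 3 and 4 of T0, and replicates 1, 2 and 4 of T3 and of primary cells. The primary cells were dissociated and sorted from larval brains, while both kinds of mass were collected whole from adult hosts after further growth. Sorting, host tissue, transplantation, growth time and larval or adult surroundings therefore cannot be told apart in any comparison with the primary libraries.

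Polyadenylated RNA was sequenced to 7932772 to 14093032 counts per library, and the lowest count of any member in any library was 481, for SdhD. Levels are given as CPM, read counts divided by library size in 1e6 counts, with library sizes corrected by edgeR's TMM factors. Changes are log2 fold changes ± SE from edgeR's quasi-likelihood test over all 9 libraries, and called means an adjusted p (Benjamini-Hochberg, over the 9082 genes tested) under 0.05. All 31 members passed the filter on low counts. The genes of both labelled transgenes were counted in every library, and these counts do not separate transgene from endogenous reads. For dpn they were 175.7 to 322 CPM in T0, 223 to 262 CPM in T3 and 601 to 702 CPM in primary libraries. For E(spl)mγ they were 134.5 to 244 CPM in T0, 169.6 to 193 CPM in T3 and 482 to 534 CPM in primary libraries. The neuroblast gene mira ranged from 2323 to 2793 CPM in T0, from 2387 to 2437 CPM in T3 and from 1744 to 1885 CPM in primary libraries. The neuroblast genes ase and wor lay the other way: ase ranged from 30.7 to 44.2 CPM in T0, from 34.6 to 60.0 CPM in T3 and from 171.5 to 220.1 CPM in primary libraries, and wor from 220.7 to 343 CPM in T0, from 307 to 408 CPM in T3 and from 405 to 541 CPM in primary libraries.

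Most of the 31 members were lower in the transplanted masses than in the sorted primary cells. In T0 against primary, 21 of the 31 members were lower, 1 was higher and 9 were not called. Over all genes tested, 45.6% were called, 23.2% lower and 22.4% higher. The median log2 fold change of the members was -0.49, with a range of -1.15 to 0.72, against 0.01 over all genes. In T3 against primary, 22 members were lower, 1 was higher and 8 were not called, beside 47.2% of all genes called, 24.1% lower and 23.1% higher. Their median was -0.57, with a range of -1.01 to 0.96, against -0.00 over all genes. These comparisons share the primary libraries, so they are not independent of each other. The 21 genes lower in T0 were also lower in T3, ND-75 was called in T3 alone, and the gene that was higher was Idh in both. The authors' deposited tables of their own tests also call 21 members lower and 1 higher in T0, and 22 lower and 1 higher in T3.

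Judged by the libraries themselves, 19 members lay lower in every T0 library than in any primary library and 1 lay higher, beside 54.8% of all genes, 27.4% in each direction. In T3, 18 members lay lower in every library than in any primary library, and 1 lay higher, beside 57.9% of all genes, 29% lower and 28.9% higher. Summed over the 31 members, the level was 6834, 7837 and 7203 CPM in T0, 6344, 8047 and 7037 CPM in T3 and 8673, 10860.0 and 10770.0 CPM in primary libraries. The sums of all masses were thus below those of all primary libraries. In bulk RNA, fewer cells of a type and less RNA per cell cannot be told apart. The number of calls depended on single libraries. Without primary replicate 2 or without primary replicate 4, 13 members were called lower in T0, and without T3 replicate 1, 14 were called lower in T3.

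**Figure D1:**
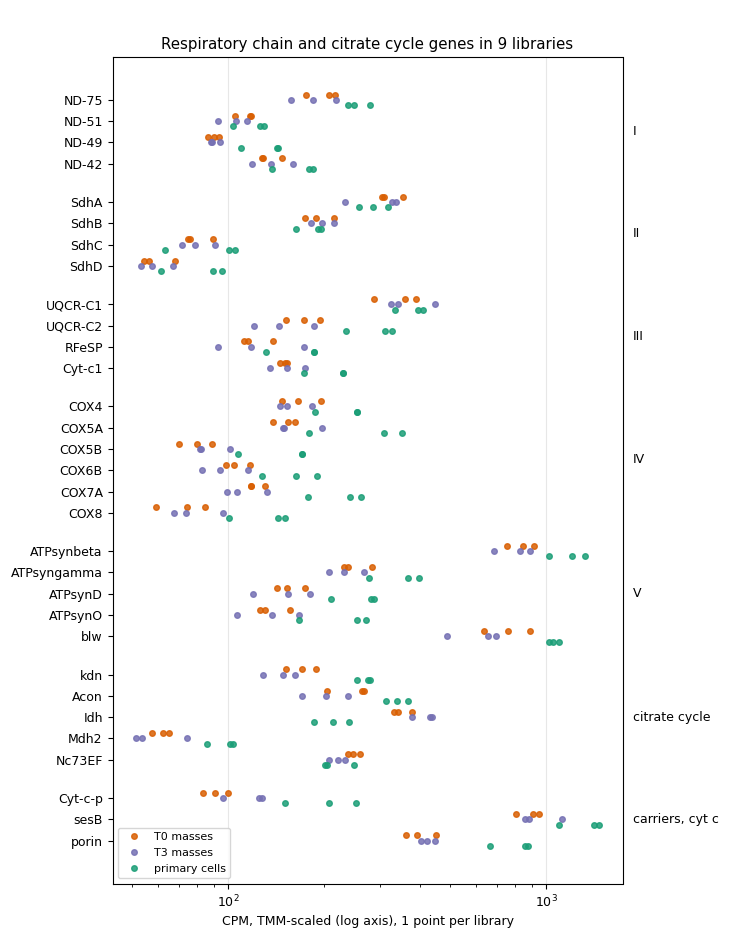
Level of each of the 31 members in each library, in CPM on a log axis, with T0 masses, T3 masses and primary cells as separate rows of points for each gene and 1 point per library. For complexes IV and V, cytochrome c, sesB and porin most mass libraries lie left of the primary libraries, the complex II genes are intermixed, and Idh lies right of them.

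Markers of other cell types also differed between the groups. The summed level of 12 neuron markers was 404 to 539 CPM in T0, 293 to 415 CPM in T3 and 1436 to 2306 CPM in primary libraries, and 10 of the 12 were called lower in T0 and 11 in T3. The 8 hemocyte markers summed to 120.0 to 615 CPM in T0, 122 to 176 CPM in T3 and 25.5 to 40.4 CPM in primary libraries, with 6 called higher in T0 and 6 in T3, where 1, Pxn, was called lower. The 9 adult fat body markers summed to 109.5 to 260.0 CPM in T0, 18.6 to 95.7 CPM in T3 and 21.1 to 24.0 CPM in primary libraries, with 5 called higher in T0 and 4 in T3, where 1, apoltp, was called lower. The 7 glia markers summed to 663 to 892 CPM in T0, 465 to 707 CPM in T3 and 429 to 635 CPM in primary libraries. In each comparison 3 of the 6 glia markers tested were called lower and 1, Eaat1, higher. Eaat1, which took the largest part of that sum in T0 and T3, averaged 510 CPM in T0, 366 CPM in T3 and 192 CPM in primary libraries, while alrm and Gs2 were lower in both kinds of mass, repo in T0 and nrv2 in T3. The 8 ovary and germline markers summed to 17.6 to 87.5 CPM in T0, 24.5 to 43.0 CPM in T3 and 20.9 to 30.7 CPM in primary libraries. Of these, 1 was called higher and 1 lower in each comparison. The 7 gut markers summed to 3.24 to 59.3, 0.367 to 4.66 and 0 to 0.219 CPM in the same groups. The 1 gut marker tested, Jon65Aiii, was called higher in T0. Its primary libraries were at 0.146, 0 and 0 CPM. The primary maxima of yl, srp and eater were 0.584, 0.0807 and 0.563 CPM. NimC1 ranged from 0.292 to 0.938 CPM and Yp2 from 0.438 to 1.78 CPM in primary libraries. These markers passed the filter on low counts through the masses, so calls of them as higher add no support. T0 replicate 2 had the highest T0 sum of hemocyte, fat body, germline and gut markers, and for gut markers T0 replicates 3 and 4 had 5.04 and 3.24 CPM. The 12 muscle markers summed to 5.68 to 13.1 CPM in T0, 5.54 to 9.66 CPM in T3 and 14.4 to 25.1 CPM in primary libraries. Of that sum bt made up 12.8 CPM on average in primary libraries, and it was the muscle marker called lower in both comparisons, of 5 tested. The marker fln was at 0 in every mass library and had 5 counts over the primary libraries together. The markers up, wupA and TpnC4 were at 0 in every primary library. They had 17, 14 and 11 counts over the T0 libraries together and 19, 15 and 19 over the T3 libraries. All of these were near the floor and were not tested. The part of these cells in the changes below was not tested. Among the primary libraries, replicate 1 had the highest neuron marker sum, 2306 CPM, and the lowest level of 28 of the 31 members.

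Complex I changed in part. ND-49, a core subunit near the quinone site, encoded on chromosome 4 at 568296 to 571554 of dm6, was at 89.99, 86.2 and 93.6 CPM in T0, 88.3, 94.2 and 88.8 CPM in T3 and 110.0, 142 and 143 CPM in primary libraries. No mass library reached the lowest primary library, and the log2 fold change was -0.55 ± 0.13 in T0 (adjusted p 0.00459) and -0.54 ± 0.13 in T3 (adjusted p 0.00490). ND-75, the large iron-sulphur subunit, was at 208, 217 and 175 CPM in T0, 157, 218 and 185 CPM in T3 and 238, 278 and 249 CPM in primary libraries. Its groups did not overlap either, but only the T3 change of -0.45 ± 0.15 was called (adjusted p 0.0289), beside -0.35 ± 0.15 in T0 (adjusted p 0.0784). The difference between the T0 and T3 changes is the T3 against T0 contrast, in which ND-75 was not called. The flavoprotein ND-51, which binds NADH, ranged from 105 to 118 CPM in T0, 92.6 to 115.0 CPM in T3 and 103 to 130.0 CPM in primary libraries, so its groups overlapped. Its changes, -0.08 ± 0.14 in T0 and -0.20 ± 0.14 in T3, were not called, and neither were those of the accessory subunit ND-42, -0.31 ± 0.16 in T0 and -0.28 ± 0.16 in T3. The T3 call for ND-75 was lost on leaving out T3 replicate 1 or 4, or primary replicate 2 or 4 (adjusted p 0.0588 to 0.133).

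Complex II, succinate dehydrogenase, differed least of the 5 complexes by its median, which was -0.04 in T0 and -0.05 in T3. SdhA, the flavoprotein that oxidises succinate, was at 305, 354 and 309.6 CPM in T0, 232, 337 and 327 CPM in T3 and 258, 319 and 286 CPM in primary libraries. SdhB, its iron-sulphur partner, was at 188, 215 and 174 CPM in T0, 182, 215 and 197 CPM in T3 and 163, 195 and 192 CPM in primary libraries. For both genes the groups overlapped, and the changes were 0.17 ± 0.16 and 0.05 ± 0.16 for SdhA and 0.07 ± 0.14 and 0.11 ± 0.14 for SdhB in T0 and in T3. The approximate 95% interval (normal multiplier of the SE) of the SdhA change ran from -0.15 to 0.49 in T0 and from -0.27 to 0.37 in T3. That of SdhB ran from -0.20 to 0.34 and from -0.16 to 0.38. Changes of the median size seen in complex IV lie outside all 4 intervals. The membrane anchor SdhC was not called, at -0.16 ± 0.18 in T0 and -0.16 ± 0.18 in T3.

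SdhD, the other membrane anchor, was the complex II gene that was called lower. It was at 54.5, 68.0 and 56.3 CPM in T0, 53.2, 67.2 and 57.6 CPM in T3 and 61.3, 95.6 and 89.3 CPM in primary libraries. Primary replicate 1 lay among the mass libraries, while primary replicates 2 and 4 lay above all of them. The change was -0.46 ± 0.17 in T0 (adjusted p 0.0462) and -0.47 ± 0.17 in T3 (adjusted p 0.0417). The T0 call was lost on leaving out T0 replicate 2 or 4, or T3 replicate 1, 2 or 4, or primary replicate 2 or 4 (adjusted p 0.0525 to 0.177), and the T3 call on leaving out T0 replicate 4, or T3 replicate 1 or 4, or primary replicate 2 or 4 (adjusted p 0.0554 to 0.160). SdhD shares 13.9% of its exon bases with the opposite-strand gene PTPMT1 and SdhB shares 10.6% with CG15237, and whether the counting used strand is not given in the sources used here.

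Complex III was split within itself. UQCR-C2, a core subunit, was at 173, 194 and 152 CPM in T0, 120.4, 187 and 145 CPM in T3 and 234, 312 and 328 CPM in primary libraries. All masses lay below all primary libraries, and the gene fell by 0.75 on the log2 scale in T0 (adjusted p 0.00594) and by 0.95 in T3 (adjusted p 0.00141). Its partner in the core, UQCR-C1, ranged from 288 to 389 CPM in T0, 326 to 448 CPM in T3 and 335 to 409.7 CPM in primary libraries. These ranges overlapped, and its changes of -0.14 ± 0.17 in T0 and -0.03 ± 0.17 in T3 were not called. Cyt-c1, which passes electrons to cytochrome c, was at 151, 153 and 145 CPM in T0, 153, 174 and 136 CPM in T3, and at 173 CPM in primary replicate 1 and at least 229 CPM in primary replicates 2 and 4. It changed by -0.49 ± 0.15 in T0 (adjusted p 0.0167) and -0.45 ± 0.15 in T3 (adjusted p 0.0248). The T0 libraries lay below all primary libraries, while T3 replicate 2 reached the lowest primary library. The Rieske iron-sulphur protein RFeSP was not called, at -0.46 ± 0.22 in T0 and -0.39 ± 0.22 in T3, and ranged from 112 to 139 CPM in T0, 93.1 to 173 CPM in T3 and 131 to 187 CPM in primary libraries. Leaving out T3 replicate 2 brought the T3 change of RFeSP to -0.67 with an adjusted p of 0.0199, and the T0 change was called with no filter on low counts (adjusted p 0.0411). The calls for Cyt-c1 were lost in T0 on leaving out T0 replicate 4, or primary replicate 2 or 4 (adjusted p 0.0548 to 0.0656) and in T3 on leaving out T3 replicate 1 or 4, or primary replicate 2 or 4 (adjusted p 0.0711 to 0.0961).

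Complex IV, cytochrome c oxidase, fell as a group: all 6 members were called lower in T0, with a median log2 fold change of -0.87, and all 6 in T3, with a median of -0.75. COX7A was at 118, 130.3 and 118 CPM in T0, 99.1, 132 and 106 CPM in T3 and 178, 241 and 262 CPM in primary libraries. Its level in the masses was 53.8% of the primary level in T0 and 49.5% in T3, or -0.89 ± 0.16 (adjusted p 0.000974) and -1.01 ± 0.17 (adjusted p 0.000387) on the log2 scale. COX5B, which lies at the matrix face of the enzyme, was at 69.9, 89.2 and 79.96 CPM in T0, 82.2, 101 and 81.5 CPM in T3 and 107, 170.2 and 170.3 CPM in primary libraries. COX5A, its neighbour there, was at 154, 163 and 139 CPM in T0, 149.5, 198 and 148 CPM in T3 and 180.1, 309 and 352 CPM in primary libraries. The groups of COX5B did not overlap, while T3 replicate 2 of COX5A lay above primary replicate 1. The changes were -0.90 ± 0.19 in T0 and -0.76 ± 0.18 in T3 for COX5B (adjusted p 0.00191 and 0.00535), and -0.88 ± 0.22 and -0.76 ± 0.22 for COX5A (adjusted p 0.00590 and 0.0128).

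The small membrane subunit COX8 was at 59.3, 84.4 and 74.3 CPM in T0, 67.3, 96.4 and 73.6 CPM in T3 and 100.3, 144 and 151 CPM in primary libraries, with no overlap between masses and primary cells. It changed by -0.86 ± 0.19 in T0 (adjusted p 0.00354) and -0.74 ± 0.19 in T3 (adjusted p 0.00815). COX6B, which faces the intermembrane space, was at 104, 117 and 98.3 CPM in T0, 82.9, 115.4 and 94.1 CPM in T3 and 128, 164 and 189.6 CPM in primary libraries. Its groups did not overlap, and it changed by -0.59 ± 0.17 (adjusted p 0.0131) and -0.72 ± 0.17 (adjusted p 0.00432). It shares 9.38% of its exon bases with CG18809 on the same strand. COX4, the largest nuclear subunit, was at 166, 196 and 148 CPM in T0, 145, 183 and 153 CPM in T3 and 188, 253 and 254 CPM in primary libraries. T0 replicate 3 of COX4 lay above primary replicate 1, and its change was the smallest of the complex in both comparisons, -0.45 ± 0.16 in T0 (adjusted p 0.0422) and -0.53 ± 0.16 in T3 (adjusted p 0.0192). COX4 lost its T0 call on leaving out T0 replicate 2 or 4, or T3 replicate 1 or 4, or primary replicate 2 or 4 (adjusted p 0.0521 to 0.152), and its T3 call on leaving out T3 replicate 1 or 4, or primary replicate 2 or 4 (adjusted p 0.0587 to 0.0793). COX6B lost its T0 call on leaving out T0 replicate 4, or primary replicate 4 (adjusted p 0.0511 and 0.0644), and COX5A its T3 call on leaving out T3 replicate 1, or primary replicate 4 (adjusted p 0.0526 and 0.0664).

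Complex V, the ATP synthase, also fell in all of its 5 members, with a median of -0.50 in T0 and -0.75 in T3. Its catalytic head is built from the alpha subunit blw and ATPsynbeta, inside which the shaft ATPsyngamma turns. The alpha subunit blw was at 638, 890.3 and 759 CPM in T0, 487, 657 and 695 CPM in T3 and 1024, 1052 and 1100.0 CPM in primary libraries. ATPsynbeta was at 753, 846 and 915 CPM in T0, 685, 891 and 824 CPM in T3 and 1022, 1326 and 1209 CPM in primary libraries. For both subunits every mass lay below every primary library. The change of blw was -0.47 ± 0.18 in T0 (adjusted p 0.0441) and -0.79 ± 0.18 in T3 (adjusted p 0.00324), and that of ATPsynbeta was -0.50 ± 0.16 (adjusted p 0.0257) and -0.57 ± 0.16 (adjusted p 0.0137). ATPsyngamma was at 238, 284 and 231 CPM in T0, 207, 267 and 231 CPM in T3 and 277, 369 and 397 CPM in primary libraries. It changed by -0.47 ± 0.17 (adjusted p 0.0363) and -0.57 ± 0.17 (adjusted p 0.0149), with T0 replicate 3 above primary replicate 1. The peripheral stalk was represented by ATPsynD and ATPsynO. ATPsynD was at 142, 175 and 153 CPM in T0, 119.7, 181 and 154 CPM in T3 and 210.5, 281 and 287 CPM in primary libraries. ATPsynO was at 126, 157 and 130.4 CPM in T0, 107, 166 and 138 CPM in T3 and 168, 253 and 270.5 CPM in primary libraries. Neither gene's masses reached its primary libraries, and the changes were -0.73 ± 0.18 and -0.77 ± 0.18 for ATPsynD (adjusted p 0.00536 and 0.00365) and -0.74 ± 0.20 and -0.75 ± 0.20 for ATPsynO (adjusted p 0.0103 and 0.00945).

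The calls for the peripheral stalk genes ATPsynD and ATPsynO remained under every setting tried, whereas those for the head and shaft rested on single libraries in part. In T0 the call for blw was lost on leaving out T0 replicate 2 or 4, or T3 replicate 2, or primary replicate 1, 2 or 4 (adjusted p 0.0585 to 0.130), that for ATPsynbeta on leaving out T0 replicate 2 or 3, or primary replicate 2 or 4 (adjusted p 0.0619 to 0.0996), and that for ATPsyngamma on leaving out T0 replicate 2 or 4, or primary replicate 2 or 4 (adjusted p 0.0869 to 0.141). In T3 the call for ATPsynbeta was lost on leaving out T3 replicate 1, or primary replicate 2 (adjusted p 0.0591 and 0.0717), and that for ATPsyngamma on leaving out T3 replicate 1, or primary replicate 2 or 4 (adjusted p 0.0503 to 0.0700).

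**Figure D2:**
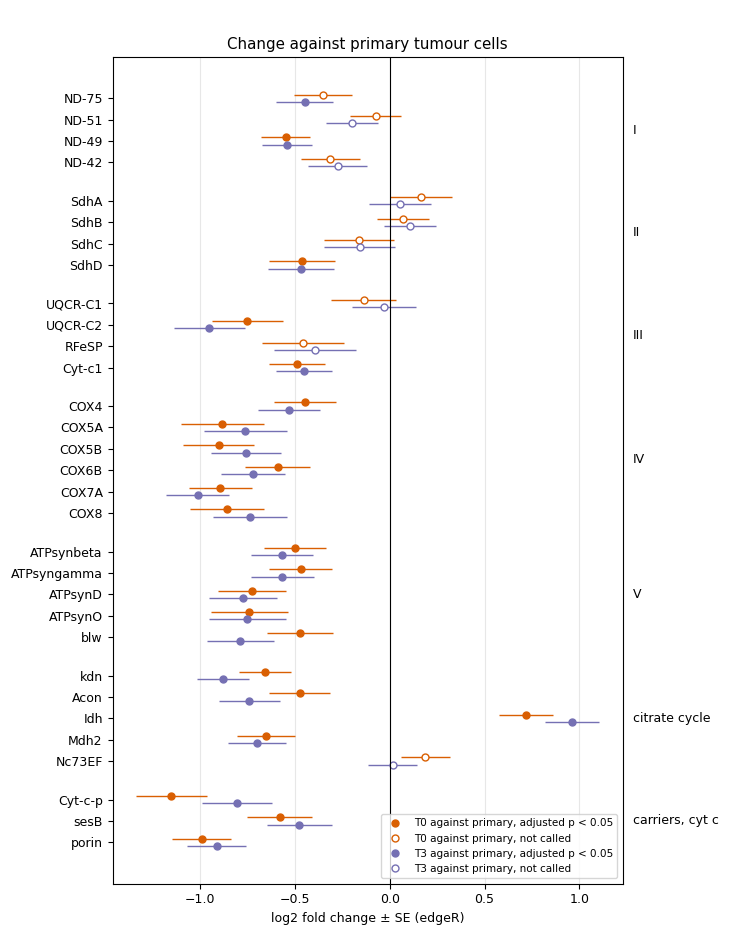
Log2 fold change ± SE of each member in T0 and T3 against primary cells, from edgeR's quasi-likelihood test over 9 libraries, grouped by complex, with filled points for an adjusted p under 0.05. All points of complexes IV and V are filled and below 0, complex II holds 1 filled gene, SdhD, and Idh alone is filled above 0.

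Of the 5 citrate cycle members, 3 were called lower in each comparison, 1, Idh, was called higher, and Nc73EF was not called. Citrate synthase, kdn, which opens the cycle and lies on chromosome X at 6350629 to 6361323 of dm6, was at 152, 171 and 189 CPM in T0, 128, 162 and 149 CPM in T3 and 279, 276 and 253 CPM in primary libraries. It fell by 0.66 on the log2 scale in T0 (adjusted p 0.00211) and by 0.88 in T3 (adjusted p 0.000295), with no overlap. Acon, the mitochondrial aconitase that turns citrate into isocitrate, was at 204, 267 and 263 CPM in T0, 171, 203 and 238 CPM in T3 and 368, 339.5 and 313 CPM in primary libraries. Its masses lay below all primary libraries, and it changed by -0.48 ± 0.16 in T0 (adjusted p 0.0289) and -0.74 ± 0.16 in T3 (adjusted p 0.00267). Mdh2, the mitochondrial malate dehydrogenase that closes the cycle, was at 65.1, 57.5 and 62.2 CPM in T0, 51.2, 74.5 and 53.5 CPM in T3 and 86.0, 101 and 103 CPM in primary libraries. It changed without overlap, by -0.65 ± 0.15 (adjusted p 0.00462) and -0.70 ± 0.16 (adjusted p 0.00299). Nc73EF, the first subunit of the 2-oxoglutarate dehydrogenase complex, was at 248, 238 and 260.2 CPM in T0, 232, 207 and 222 CPM in T3 and 249, 205 and 201 CPM in primary libraries. Its groups overlapped and its changes of 0.19 ± 0.13 in T0 and 0.01 ± 0.13 in T3 were not called. The T0 call for Acon was lost on leaving out T0 replicate 2, or primary replicate 1 or 2 (adjusted p 0.0644 to 0.100).

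Idh was the member that rose. It encodes the NADP-dependent isocitrate dehydrogenase, which makes NADPH and is distinct from the NAD-dependent Idh3 enzyme of the cycle, and it lies on chromosome 3L at 8356404 to 8360906 of dm6. Idh was at 379, 343 and 331 CPM in T0, 430.3, 438 and 378 CPM in T3 and 186, 240.0 and 214 CPM in primary libraries. Every mass library exceeded every primary library. Its level was 164.6% of the primary level in T0 and 194.9% in T3, a log2 fold change of 0.72 ± 0.14 (adjusted p 0.00150) and 0.96 ± 0.14 (adjusted p 0.000191), called under every setting tried. The subunits of the NAD-dependent enzyme did not share the rise: Idh3a changed by -0.35 ± 0.13 in T0 (adjusted p 0.0459) and -0.44 ± 0.13 in T3 (adjusted p 0.0164), while Idh3b, at -0.34 ± 0.15 and -0.22 ± 0.15, and Idh3g, at -0.00 ± 0.12 and -0.03 ± 0.12, were not called. The T0 call for Idh3a was lost on leaving out any 1 of the 9 libraries (adjusted p 0.0512 to 0.152), and its T3 call on leaving out T3 replicate 1 or 2, or primary replicate 2 (adjusted p 0.0523 to 0.0694).

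Cytochrome c and the membrane carriers were all lower. Cyt-c-p, the somatic cytochrome c that shuttles electrons from complex III to complex IV and lies on chromosome 2L at 16719932 to 16722644 of dm6, was at 83.6, 99.8 and 90.7 CPM in T0, 128, 125 and 96.0 CPM in T3 and 150.4, 207 and 252 CPM in primary libraries. In T0 it fell by 1.15 on the log2 scale (adjusted p 0.000423), to 45.0% of the primary level, and in T3 by 0.81 (adjusted p 0.00383). No mass reached a primary library. Its germline paralog Cyt-c-d, its neighbour on the same chromosome, was too low to be tested, with a mean of 0.535 CPM over the 9 libraries. The outer membrane channel porin, which lets metabolites in and out of mitochondria, was at 363, 451 and 394 CPM in T0, 422, 448 and 405 CPM in T3 and 667, 876 and 860.0 CPM in primary libraries. It changed by -0.99 ± 0.15 in T0 (adjusted p 0.000312) and -0.91 ± 0.15 in T3 (adjusted p 0.000504), again without overlap. The ADP/ATP translocase sesB was at 804, 907 and 952 CPM in T0, 860.1, 1119 and 881 CPM in T3 and 1098, 1469 and 1417 CPM in primary libraries. It changed by -0.58 ± 0.17 in T0 (adjusted p 0.0155) and -0.48 ± 0.17 in T3 (adjusted p 0.0369), and T3 replicate 2 lay above primary replicate 1. Calls for sesB were lost in T0 on leaving out primary replicate 2 or 4 (adjusted p 0.0557 and 0.0626) and in T3 on leaving out T0 replicate 3, or T3 replicate 1 or 4, or primary replicate 2 or 4 (adjusted p 0.0530 to 0.137).

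The second translocase, Ant2, overlaps sesB by 102 exon bases on the same strand and moved the same way. Ant2 was at 12.3, 9.07 and 8.38 CPM in T0, 10.8, 8.05 and 8.72 CPM in T3 and 24.3, 28.7 and 28.4 CPM in primary libraries. It changed by -1.46 ± 0.21 in T0 (adjusted p 0.000152) and -1.55 ± 0.21 in T3 (adjusted p 8.56e-05), and the shared bases leave the division of reads between the translocases uncertain. Of the 8 other carriers tested, Ant2 was 1 of 2 called lower in each comparison and 2 were called higher in each, so that 25% were lower, beside 23.2% of all genes in T0 and 24.1% in T3. DPCoAC, a mitochondrial carrier of dephospho-coenzyme A, was at 23.5, 12.2 and 13.2 CPM in T0, 15.6, 15.2 and 13.9 CPM in T3 and 4.67, 5.81 and 4.04 CPM in primary libraries. It changed by 1.74 ± 0.28 in T0 (adjusted p 0.000340) and 1.62 ± 0.27 in T3 (adjusted p 0.000506), but 58.6% of its exon bases are also annotated to att-ORFB on the same strand. The uncoupling protein gene Ucp4A rose by 0.53 in T0 (adjusted p 0.00524) and by 0.37 in T3 (adjusted p 0.0339), and its T3 call was lost on leaving out T3 replicate 1, 2 or 4, or primary replicate 2 or 4 (adjusted p 0.0562 to 0.108).

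The uneven change of the complexes was also visible as ratios within each library, which do not depend on scaling between libraries. These ratios were chosen after the values were seen and are given without a test. The summed CPM of complex IV members over that of complex II members was 1.08, 1.07 and 1.07 in T0, 1.16, 1.16 and 0.995 in T3 and 1.61, 1.80 and 2.05 in primary libraries. For complex V the ratio was 3.04, 3.24 and 3.55 in T0, 2.98, 3.04 and 3.09 in T3 and 4.95, 4.62 and 4.85 in primary libraries. Complex III over complex II was 1.28, 1.20 and 1.13 in T0, 1.28, 1.38 and 1.12 in T3 and 1.60, 1.60 and 1.69 in primary libraries. In all 3 ratios the masses lay below every primary library. Complex I over complex II was closer, at 0.872, 0.784 and 0.815 in T0, 0.848, 0.828 and 0.782 in T3 and 1.08, 1.03 and 1.04 in primary libraries, again without overlap. The sum of Cyt-c-p, sesB and porin over complex II was 2.01, 2.01 and 2.33 in T0, 2.62, 2.38 and 2.09 in T3 and 3.51, 3.59 and 3.76 in primary libraries. For the citrate cycle the ratio overlapped: 1.68, 1.48 and 1.79 in T0, 1.88, 1.53 and 1.57 in T3 and 2.14, 1.63 and 1.61 in primary libraries. Its sum includes Idh, the only member called higher, while kdn, Acon and Mdh2 were called lower and Nc73EF was not called. Idh averaged 351 CPM in T0, 416 CPM in T3 and 213 CPM in primary libraries. The overlap thus holds for the sum with Idh in it, and the ratio without Idh was not computed. Primary replicate 1, which was low for most members, had the highest ratio of the primary libraries for complexes I and V and the citrate cycle, and the lowest for complexes III and IV and for the sum of Cyt-c-p, sesB and porin.

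**Figure D3:**
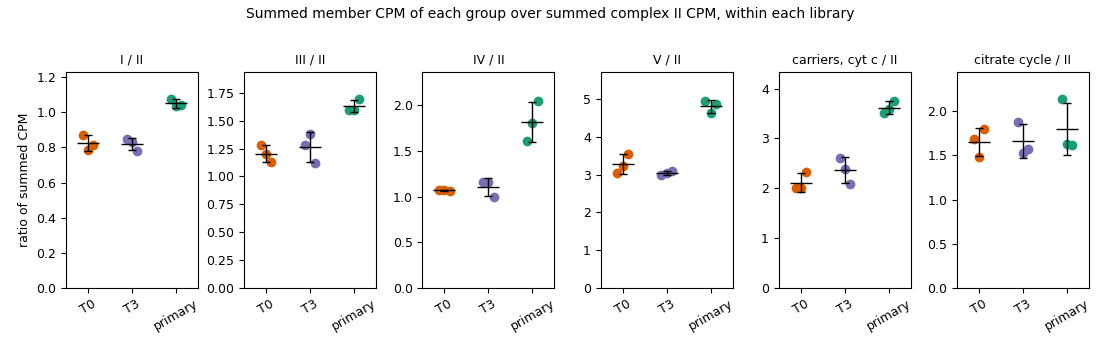
Summed CPM of each group of members divided by the summed CPM of the 4 complex II members in the same library, with 1 point per library and the mean ± SD (n = 3) of T0, T3 and primary libraries. In 5 of the 6 panels the T0 and T3 points lie below all primary points, and the citrate cycle panel, whose sum includes Idh, overlaps.

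T3 against T0 showed no member that differed past the threshold. None of the 31 was called, where 0 of all 9082 genes were called by edgeR, and 746 genes had an unadjusted p under 0.05, none of them a member. DESeq2 called 13 genes and no member. The median log2 fold change of the members was -0.01, with a range of -0.31 to 0.35, against -0.01 over all genes, and the smallest adjusted p of a member was 0.611. The largest differences were those of Cyt-c-p, 0.35 ± 0.19, and blw, -0.31 ± 0.18, followed by Acon, -0.26 ± 0.16, and Idh, 0.24 ± 0.14. For each of these the T3 and T0 libraries overlapped. Nc73EF was the member whose T3 libraries all lay below its T0 libraries, by -0.17 ± 0.13, and no member lay higher, beside 7.8% of all genes lower and 7.33% higher in every T3 library (15.1% in all). A miss of the threshold does not show equal levels: the approximate 95% interval for Cyt-c-p in T3 against T0 ran from -0.02 to 0.71, and that for blw from -0.66 to 0.03.

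Compared per kilobase of exon sequence among the 31 members, the highest levels belonged to sesB and to the head of complex V. In T0, T3 and primary libraries alike, sesB was first, ATPsynbeta the second and blw the third. In primary libraries these had 662 ± 99.9, 497 ± 64.2 and 470.0 ± 17.1 CPM per kilobase (SD, n = 3), and the spreads of ATPsynbeta and blw overlapped. COX5A followed at 352 ± 112 CPM per kilobase in primary libraries, overlapping COX7A at 326 ± 62.4 and Cyt-c-p at 298 ± 75.0. At the low end stood Mdh2, at 72.5 ± 7.06, and Nc73EF, at 40.9 ± 4.997 CPM per kilobase. Some ranks differed between the groups. Idh was at rank 11 in T0 and 6 in T3 but 27 in primary libraries, and UQCR-C1 at rank 4 in T0, 4 in T3 and 12 in primary libraries. Cyt-c-p stood at rank 16 in T0, 8 in T3 and 6 in primary libraries. In T3, Idh and ATPsynO were tied at 170.8 CPM per kilobase and Cyt-c-p was at 170.6, so their T3 ranks do not separate them.

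The other nuclear subunits gave a comparison for the members. Of 46 further subunits of complexes I, III, IV and V, 45 were tested, and 24 were lower in T0 with 0 higher, at a median log2 fold change of -0.49. In T3, 16 were lower and 0 higher, at a median of -0.39. These were 53.3% lower in T0 and 35.6% in T3, beside 23.2% and 24.1% of all genes. The counts moved with single libraries, to 8 in T0 on leaving out primary replicate 4, 11 on leaving out primary replicate 2, 12 on leaving out T0 replicate 4 and 15 on leaving out T0 replicate 2. In T3 the count was 7 without T3 replicate 1 or primary replicate 4, 8 without primary replicate 2, 9 without T3 replicate 4 and 25 without primary replicate 1. Members and further subunits together gave 13 of 13 complex V genes lower in T0 and 12 of 13 in T3, 8 of 9 complex IV genes in each, 6 of 9 complex III genes in T0 and 4 of 9 in T3, and 11 of 33 complex I genes in T0 and 7 of 33 in T3. For complex I, the complex with the most subunits, this was 33.3% lower in T0 and 21.2% in T3, in T3 no more than the 24.1% of all genes. In each comparison 0 of the 33 were called higher, beside 22.4% of all genes in T0 and 23.1% in T3. Their median log2 fold change was -0.34 in T0 and -0.26 in T3, against 0.01 and -0.00 over all genes. ND-MLRQ, counted here with complex I by its gene name, was called lower in both comparisons. Of the 7 core complex I subunits tested, 2 were lower in T0 and 3 in T3, and of the 26 accessory subunits, 9 and 4 were, a grouping made after the values were seen.

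Among these further subunits, ox, UQCR-11 and ND-MLRQ had the largest called changes in T0. UQCR-11, the hinge subunit of complex III, was at 29.5, 35.8 and 39.6 CPM in T0, 47.7, 43.1 and 38.6 CPM in T3 and 62.6, 91.1 and 99.6 CPM in primary libraries. The change was -1.27 ± 0.18 in T0 (adjusted p 0.000179) and -0.97 ± 0.18 in T3 (adjusted p 0.00101), with no overlap. Another complex III subunit, ox, changed by -1.29 ± 0.25 (adjusted p 0.00120) and -0.94 ± 0.24 (adjusted p 0.00731), and shares 12.4% of its exon bases with another gene. UQCR-6.4 was called in T0, at -0.64 ± 0.19 (adjusted p 0.0154), with 40.5% of its exon bases shared with POSH on the opposite strand. ND-MLRQ was listed with complex I by its gene name, and its place in that complex was not tested. It was at 46.9, 52.7 and 55.4 CPM in T0, 59.5, 75.4 and 56.0 CPM in T3 and 90.2, 132 and 130.2 CPM in primary libraries. Its change, -1.18 ± 0.17 in T0 (adjusted p 0.000187) and -0.89 ± 0.17 in T3 (adjusted p 0.00120), was followed by those of ND-B14, -0.78 ± 0.19 and -0.61 ± 0.19, and ND-B12, -0.72 ± 0.23 and -0.64 ± 0.23, both called in each comparison. In complex IV, cype changed by -0.86 ± 0.17 in T0 (adjusted p 0.00132) and -0.91 ± 0.17 in T3 (adjusted p 0.000884), and COX7C by -0.49 ± 0.16 (adjusted p 0.0252) and -0.42 ± 0.16 (adjusted p 0.0470).

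In complex V the membrane-sector subunit ATPsynG changed by -0.81 ± 0.18 in T0 (adjusted p 0.00303) and -0.79 ± 0.18 in T3 (adjusted p 0.00340). ATPsynC, the proton-carrying ring, was at 813, 1098 and 991 CPM in T0, 702, 976 and 958 CPM in T3 and 1344, 1526 and 1532 CPM in primary libraries, and changed by -0.60 ± 0.18 (adjusted p 0.0152) and -0.74 ± 0.18 (adjusted p 0.00487). ATPsynF changed by -0.76 ± 0.22 and -0.75 ± 0.22, and ATPsynE by -0.75 ± 0.15 and -0.64 ± 0.15, all called. Of the calls named for further subunits, those of COX7C were lost in T0 on leaving out T0 replicate 2 or 4, or primary replicate 2 or 4 (adjusted p 0.0627 to 0.0959) and in T3 on leaving out T0 replicate 3 or 4, or T3 replicate 1 or 4, or primary replicate 2 or 4 (adjusted p 0.0579 to 0.163). Those of ND-B12 were lost in T0 on leaving out T0 replicate 4, or primary replicate 2 or 4 (adjusted p 0.0782 to 0.0957) and in T3 on leaving out T3 replicate 1 or 4, or primary replicate 2 or 4 (adjusted p 0.0846 to 0.145), and the T3 call of ND-B14 on leaving out T3 replicate 1 or 4, or primary replicate 2 or 4 (adjusted p 0.0635 to 0.0813). ATPsynF lost its T0 call on leaving out primary replicate 4 (adjusted p 0.0673) and its T3 call on leaving out T3 replicate 1, or primary replicate 4 (adjusted p 0.0573 and 0.0696), ATPsynC its T0 call on leaving out primary replicate 4 (adjusted p 0.0505), and UQCR-6.4 its T0 call on leaving out T0 replicate 4, or primary replicate 2 or 4 (adjusted p 0.0503 to 0.0768). Without primary replicate 1, UQCR-6.4 was also called in T3 (adjusted p 0.0147).

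**Figure D4:**
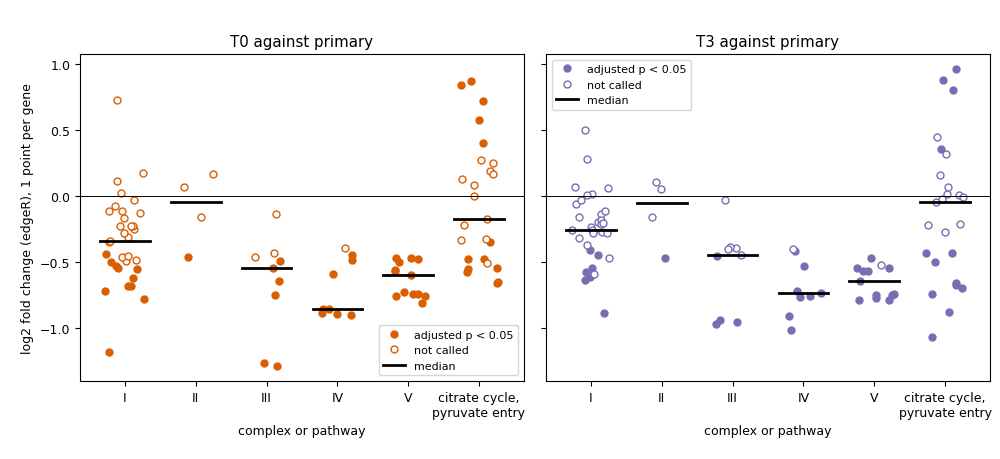
Log2 fold change of every tested nuclear subunit of complexes I to V and of the citrate cycle and pyruvate entry genes, members included, in T0 (left) and T3 (right) against primary cells, with 1 point per gene, filled where the adjusted p was under 0.05, and a bar at the median of each column. Complex V lies wholly below 0 with 13 of 13 genes filled in T0 and 12 of 13 in T3, whereas the citrate cycle column spans both sides of 0.

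Other enzymes of the citrate cycle and of pyruvate entry did not move as a block. Of 20 tested, 4 were higher and 5 lower in T0, at a median of -0.09, and 3 were higher and 6 lower in T3, at a median of -0.04. The share called, 45% in each comparison, was close to the 45.6% of all genes in T0 and 47.2% in T3. Fumarase, Fum1, was at 511, 484 and 436 CPM in T0, 370.1, 530.3 and 466 CPM in T3 and 198, 287 and 297 CPM in primary libraries. It rose without overlap, by 0.87 on the log2 scale in T0 (adjusted p 0.00245) and by 0.81 in T3 (adjusted p 0.00382). Glutamate dehydrogenase, Gdh, which feeds 2-oxoglutarate into the cycle, was at 930.5, 626 and 605 CPM in T0, 777, 711 and 720.1 CPM in T3 and 305, 411 and 487 CPM in primary libraries. It rose by 0.84 in T0 (adjusted p 0.00548) and by 0.88 in T3 (adjusted p 0.00437), and all masses lay above all primary libraries. Mdh1, the cytosolic counterpart of Mdh2, was at 53.7, 60.6 and 50.9 CPM in T0, 40.0, 58.0 and 53.5 CPM in T3 and 28.4, 41.9 and 40.6 CPM in primary libraries. It was called higher in T0, 0.58 ± 0.18 (adjusted p 0.0200), and not in T3, 0.45 ± 0.18 (adjusted p 0.0580). A subunit of succinyl-CoA synthetase, ScsbetaA, was called in T3, 0.35 ± 0.13 (adjusted p 0.0435), and the call was lost on leaving out T0 replicate 3 or 4, or T3 replicate 1, 2 or 4, or primary replicate 1 or 2 (adjusted p 0.0568 to 0.128). The T0 call of Mdh1 was lost on leaving out T0 replicate 3, or primary replicate 1 (adjusted p 0.0672 and 0.0723), and Mdh1 was called in T3 without T3 replicate 1 (adjusted p 0.0233) and with no filter on low counts (adjusted p 0.0305).

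Of the genes at the entry of pyruvate, some were called lower and others were not called. Pdhb, a subunit of the first enzyme of the pyruvate dehydrogenase complex, changed by -0.54 ± 0.14 in T0 (adjusted p 0.00751) and -0.66 ± 0.14 in T3 (adjusted p 0.00230). The other subunit of that enzyme, Pdha, was not called, at 0.16 ± 0.13 in T0 and 0.16 ± 0.13 in T3, and neither were muc, which encodes the acetyltransferase subunit of the complex, at -0.17 ± 0.12 and -0.27 ± 0.12, or the pyruvate carrier Mpc1, at -0.32 ± 0.24 and -0.21 ± 0.24. Pdk, the kinase that inhibits that complex, was at 23.2, 26.6 and 29.1 CPM in T0, 23.5, 24.3 and 24.9 CPM in T3 and 46.4, 37.4 and 32.2 CPM in primary libraries, a change of -0.56 ± 0.16 (adjusted p 0.0147) and -0.68 ± 0.16 (adjusted p 0.00503). CG7430, which encodes dihydrolipoamide dehydrogenase, a subunit shared by the pyruvate and 2-oxoglutarate dehydrogenases, changed by -0.57 ± 0.12 (adjusted p 0.00203) and -0.50 ± 0.12 (adjusted p 0.00453). Pyruvate carboxylase, PCB, which makes oxaloacetate from pyruvate, was at 159, 122 and 131 CPM in T0, 67.7, 107 and 105 CPM in T3 and 198, 232 and 156.2 CPM in primary libraries. It was called in T3, -1.07 ± 0.20 (adjusted p 0.00104), and not in T0, -0.51 ± 0.20 (adjusted p 0.0526), and it was not called in T3 against T0. The T0 call of Pdk was lost on leaving out T0 replicate 2, or primary replicate 1 (adjusted p 0.0505 and 0.0649), whereas T0 replicate 2, T3 replicate 1 or primary replicate 4, left out, brought PCB in T0 past the threshold (adjusted p 0.0296 to 0.0363).

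Transcript length differed among the members and was set beside the changes. The 10 members with up to 1000 exon bases had a median log2 fold change of -0.80 in T0 and -0.75 in T3, against -0.03 and 0.07 over all 1396 genes of that length. For the 5 members of more than 1000 and up to 1500 bases, the medians were -0.46 in T0 and -0.53 in T3, against 0.04 and 0.14 over 1440 genes. For the 10 members of more than 1500 and up to 2500 bases, the medians were -0.48 in T0 and -0.46 in T3, against 0.09 and 0.11 over 2386 genes. The 5 members of more than 2500 and up to 4000 bases had medians of -0.475 and -0.74, against -0.01 and -0.06 over 1776 genes. In T3 the members thus showed no steady order by length. In T3, genes of more than 4000 exon bases, among them Nc73EF, had a median of -0.28. The part of transcript length in the changes was not tested. Genes sharing exon bases with a neighbour, which could exchange reads with it, made up 14 of the 31 members.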

How the data were processed

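The deposited data were 3 tables, 1 for each pair of groups, that repeat 9 columns of raw counts, 1 per library, and these counts entered every test. The tables also hold the log2 fold change and the adjusted p-value of the authors' own tests, used here to count the authors' calls. The submitters' processing notes name the build dm6, HISAT2 2.1.0, bedtools 2.25.0, HTSeq and edgeR, and the labels give 13 PCR cycles and single reads of 75 nt. The release of the annotation and whether strand was used are not stated in any source used here. A further 9 columns of normalised values and 4 of group means per table were not used.

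Tests ran in edgeR 4.0.16 (R 4.3.3) on genes kept by filterByExpr at a minimum count of 10, with TMM factors and 1 quasi-likelihood model for the 3 groups and all 9 libraries. P-values are two-sided and were adjusted by Benjamini-Hochberg over 9082 genes. The procedure was tested on simulated counts. The SE was taken from the F statistic as the log2 fold change over its square root. Alternatives used limma 3.58.1 (voom) and DESeq2 1.42.0, other scaling factors and filters, a replicate block, a fit on 6 libraries, and each library left out in turn. Replicates of a group differed beyond sampling noise, with chi-square values of 14.5 to 72.5 per degree of freedom, so none was counted as a repeat. Each library pools animals, so a p-value here reflects how such pools differ. Coordinates and exon lengths came from Ensembl's BDGP6 annotation. The members lie on chromosome arms 2L (7), 2R (3), 3L (5) and 3R (10) and on chromosomes 4 (2) and X (4).

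The members and gene lists were chosen with earlier results of these data known, so no p was computed over a list. All members were named, and called members and those going against their complex were given with every library's CPM. Of each other list, up to 3 called genes per direction with the largest change and a mean of at least 5 CPM were named, together with Ant2, Cyt-c-d, Idh3a, Idh3b, Idh3g and Mdh1. The low-level paralog COX7AL was named after its values were seen. The ratios to complex II and the split by exon length were added after the data were seen.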

Additional observations from a re-analysis of the deposited data

How the results depend on the processing

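Called under every setting tried were 13 of the 22 T0 calls and 15 of the 23 T3 calls among the members. Leaving out single libraries gave 14 to 21 members called in T0, 13 to 20 of them lower, and 15 to 24 in T3, 14 to 23 of them lower. For further subunits the same step gave 8 to 30 lower in T0 and 7 to 25 in T3. Other settings gave 18 to 25 members called in T0 and 21 to 24 in T3. The T0 calls of SdhD, COX4, ATPsyngamma and blw were lost in a fit on the 6 libraries of both groups (adjusted p 0.0544 to 0.0655), as was that of SdhD in T3 (0.0507). SdhD also lost its calls with upper quartile factors (adjusted p 0.0525 in T0 and 0.0583 in T3) and by limma-voom (0.0586 and 0.0505). The T3 call of sesB was lost with upper quartile factors (adjusted p 0.0528) and with no filter (0.0746), and the T0 call of blw with no filter (0.0612). ND-75 was called in T0 by DESeq2 (adjusted p 0.0466) and RFeSP in T0 with no filter (0.0411).

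Among named genes that are not members, with no filter the T0 calls of Idh3a and CIA30 (adjusted p 0.114 and 0.0646) and the T3 calls of COX7C, ScsbetaA and Ucp4A (0.0582 to 0.0846) were lost, while PCB was called in T0 (0.0158) and Mdh1 and UQCR-6.4 in T3 (0.0305 and 0.0457). In the fit on 6 libraries, Idh3a and CIA30 in T0 and COX7C and ScsbetaA in T3 were lost (adjusted p 0.0522 to 0.0877), and PCB was called in T0 (0.0424), as by DESeq2 (0.0348). COX7C in T3 was lost with upper quartile factors and by limma-voom (adjusted p 0.0673 and 0.0514), Sdhaf3 in T0 by limma-voom (0.0767), and ewg in T0 with RLE factors (0.0515).

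In T3 against T0, 96 genes were called with no filter, 13 by DESeq2, 5 with a replicate block and 0 to 5 on leaving out single libraries (5 without T3 replicate 2), with 0 members called under every setting.

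Same-numbered libraries did not deviate together throughout: the correlations of their deviations were 0.121, 0.15 and 0.0101 for T3 with primary, -0.0566 and -0.0465 for T0 with primary, and 0.2 and 0.256 for T3 with T0, and not every library correlated best with its own number. With the replicate block, in which T0 replicate 3 has no partner, the T0 median was -0.68 and 25 members were called in T0 and 24 in T3. The added members were ND-75, ND-42 and RFeSP in T0 (adjusted p 0.0298, 0.0273 and 0.00699) and RFeSP in T3 (0.0411). Mdh1 and UQCR-6.4 in T3 and mTerf3 in T0 were also called (adjusted p 0.0154 to 0.0395), while CIA30, Idh3a, Mdh1, Pdk and Sdhaf3 in T0 and ScsbetaA and Ucp4A in T3 lost their calls (0.0563 to 0.15). SdhA and SdhB turned to -0.0235 and -0.0838 in T0, and Idh3g to 0.0203.

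Directions that reversed belonged to changes near 0 that were not called. Nc73EF in T3 was -0.0031 with RLE factors and by DESeq2, and Idh3g in T0 was 0.0063 in the fit on 6 libraries. Leaving out single libraries, SdhB in T0 ranged from -0.0168 to 0.14, SdhA in T3 from -0.0347 to 0.213, UQCR-C1 in T3 from -0.181 to 0.0608, Nc73EF in T3 from -0.0428 to 0.143, Idh3g from -0.101 to 0.0663 in T0 and from -0.0443 to 0.0031 in T3, and ewg in T3 from -0.12 to 0.262. The causes were not tested. With 3 libraries a group, changes under about the size of SdhD were near the limit of what could be called.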

Other observations

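Genes that build and supply mitochondria were called about as often as all genes. Of 15 genes of mitochondrial biogenesis and protein import tested, 2 were higher and 4 lower in T0, and 3 were higher and 3 lower in T3, 40% called in each comparison, beside 45.6% of all genes in T0 and 47.2% in T3. Those that fell included import and folding genes. Tim23, the channel of the inner membrane, was at 94.6, 93.1 and 96.4 CPM in T0, 119.5, 119.9 and 89.9 CPM in T3 and 135, 180.1 and 183 CPM in primary libraries, a change of -0.81 ± 0.16 in T0 (edgeR adjusted p 0.00132) and -0.60 ± 0.16 in T3 (adjusted p 0.00788). Tom40, the channel of the outer membrane, changed by -0.58 ± 0.14 and -0.49 ± 0.14, and the matrix chaperone Hsp60A by -0.70 ± 0.17 and -0.56 ± 0.17, all called. Their T3 calls were lost on leaving out primary replicate 4 (adjusted p 0.0623) for Tom40 and T3 replicate 1 or 4, or primary replicate 2 (adjusted p 0.0570 to 0.0708) for Hsp60A. The mitochondrial RNA polymerase PolrMT went the other way. It was at 70.5, 80.2 and 80.1 CPM in T0, 75.3, 85.2 and 80.5 CPM in T3 and 51.5, 47.4 and 41.9 CPM in primary libraries, and every mass lay above every primary library. It rose by 0.71 on the log2 scale in T0 (adjusted p 0.000706) and by 0.77 in T3 (adjusted p 0.000367). The mitochondrial transcription termination factor genes mTerf3 and mTTF were called higher in T3, at 0.67 ± 0.20 and 0.63 ± 0.19, calls that were lost on leaving out T3 replicate 1 (adjusted p 0.0878) for mTerf3 and T3 replicate 1, or primary replicate 1 or 4 (adjusted p 0.0547 to 0.0792) for mTTF. Without primary replicate 2, mTTF was also called in T0 (adjusted p 0.0158). The transcription factor gene ewg was called higher in T0, 0.59 ± 0.22, and lost the call on leaving out T0 replicate 2 or 4, or T3 replicate 1, or primary replicate 2 or 4 (adjusted p 0.0504 to 0.150).

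Of 8 assembly factors tested, CIA30, a complex I assembly factor, was higher in both comparisons, 0.49 ± 0.17 in T0 (adjusted p 0.0328) and 0.66 ± 0.17 in T3 (adjusted p 0.00714). The complex II factors differed: Sdhaf3 was called lower in T0, -0.96 ± 0.36 (adjusted p 0.0454), and Sdhaf4 higher in T3, 0.82 ± 0.24 (adjusted p 0.0135). The T0 calls were lost on leaving out T0 replicate 2 or 3, or primary replicate 1 or 4 (adjusted p 0.0642 to 0.0973) for CIA30 and T0 replicate 2, 3 or 4, or T3 replicate 1, or primary replicate 2 or 4 (adjusted p 0.0559 to 0.209) for Sdhaf3, and the T3 call of Sdhaf4 on leaving out T3 replicate 1, or primary replicate 4 (adjusted p 0.0546 and 0.0775). Of 14 male germline paralogs of respiratory chain genes in the count tables, 2 were high enough to be tested. COX7AL was at 3.06, 1.10 and 1.47 CPM in T0 and 1.98, 3.77 and 2.05 CPM in T3. Primary libraries held 0, 0.565 and 0.0938 CPM of it. It was low everywhere and passed the filter on low counts only through the masses. Its calls as higher in T0 (adjusted p 0.00989) and T3 (adjusted p 0.00396) therefore add no support beyond these levels.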
